A study of Mus musculus with 2 samples.

Results

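The genes described here carry folate into cells and use it: the receptor gene Folr1, the transporter genes Slc19a1 and Slc46a1, and the enzyme genes Fpgs, Mthfd1, Shmt1, Tyms and Mtr. They were chosen by name, as the rows of the deposited gene table that map to these 8 symbols, of 19720 genes listed. The choice was made with earlier results of these data known. RNA sequencing measured transcripts in embryonic mouse brain of the C57BL/6 strain, in 1 H2AZcKO library (conditional knockout of the histone variant H2A.Z) and 1 H2AZfl/fl library (floxed H2A.Z alleles, titled WT), the single labelled sample of each genotype. Labels call the tissue telencephalic, while the protocol has cerebral cortex being dissected. Both samples are titled as embryonic day 16 but carry a stage label of embryonic day 12, and the age was not resolved. Which Cre line was used, and which exons were deleted, was not stated in the labels. The design text mentions triplicates, but the deposited table has 1 count column per genotype, so no test between genotypes was possible. Whether a column pools several animals or libraries is not stated, so a column is called a library here for short and may be a pool.

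Folate is a vitamin that carries single carbon units. In the embryo it supplies these units for thymidylate and purine synthesis, which dividing cells need, and for the remethylation of homocysteine to methionine, the source of most cellular methyl groups. In the brain, folate receptor alpha on choroid plexus epithelium moves folate from blood into cerebrospinal fluid, and a lack of folate or of this receptor is known to disturb neural tube closure and brain function.

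The H2AZcKO library held 9028523 reads in genes and the H2AZfl/fl library 8474545, and 14366 genes with at least 20 reads over both libraries are called measured. H2afz, the targeted gene, had 535 reads in the H2AZcKO library and 1152 in the H2AZfl/fl library, a log2 ratio of -1.16 (-1.31 to -1.01). Ratios are the H2AZcKO library over the H2AZfl/fl library after TMM scaling, with a prior of 0.5 read added to each count. Ranges in parentheses beside a ratio are exact 95% Clopper-Pearson intervals, computed from how a gene's reads divide between the libraries, and cover counting error only. Over all measured genes 5.43% were at least 1.5-fold lower in the H2AZcKO library and 3.52% higher. These shares belong beside each count of markers given here. Of 12 markers of the telencephalon, 12 were measured and 0 were at least 1.5-fold apart, and their summed level was 3953 CPM (reads per 1000000 TMM-scaled reads) in the H2AZcKO library and 4091 CPM in the H2AZfl/fl library. Among these, Neurod6, Neurod2 and Tbr1 had the most reads, and Eomes and Lhx2 were furthest from level, with log2 ratios of -0.25 (-0.33 to -0.16) and -0.22 (-0.29 to -0.15). Of 10 measured markers of the diencephalon and midbrain, 7 were at least 1.5-fold higher in the H2AZcKO library and 0 lower. The 14 listed markers summed to 208 CPM in the H2AZcKO library and 76.5 CPM in the H2AZfl/fl library. Tcf7l2, a thalamic transcription factor gene, had 1017 reads in the H2AZcKO library and 111 in the H2AZfl/fl library, and Shox2, a homeobox gene, had 85 reads in the H2AZcKO library and 0 in the H2AZfl/fl library, whereas Lhx9 and Barhl2 were at log2 ratios of -0.00 (-0.21 to 0.21) and -0.01 (-0.45 to 0.43).

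Folr1 is the gene of the group whose libraries stood apart, and it has a close relative, Folr2, next to it on chromosome 7. The coding sequences of these receptors are shown where they share their longest identical run, since reads from one could be counted for the other where the sequences are alike. GENCODE M21 transcripts gave coding sequences of 768 bases for Folr1 and 756 for Folr2, with 545 of 749 aligned bases identical (72.8%). Capitals mark the longest run that is identical in both, 20 bases long, with 30 bases on each side. The stretches lie on the minus strand of GRCm38, at chr7:101863935-101864014 for Folr1 and at chr7:101843678-101843757 for Folr2.
Folr1: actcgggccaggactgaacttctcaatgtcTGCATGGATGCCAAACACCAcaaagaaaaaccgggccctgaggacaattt
Folr2: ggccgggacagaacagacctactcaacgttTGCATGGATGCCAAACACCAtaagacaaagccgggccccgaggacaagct
No identical run in the coding sequences is longer than these 20 bases. Of 2511 different 50-base words in Folr1 transcripts, 10 (0.398%) also occur in a transcript of another gene, the gene model Gm18334. The same count was 0 for Slc19a1, Slc46a1, Mthfd1 and Mtr, 100 of 3966 words for Fpgs, 135 of 4008 for Shmt1 and 364 of 6364 (5.72%) for Tyms, whose words were shared among others with its pseudogene Tyms-ps. These counts cover exact matches only, and matches with mismatches were not examined. Read length and the handling of reads that match several genes were not stated in the labels.

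Folr1, which encodes folate receptor alpha, a high-affinity receptor anchored to the cell surface, had 1 read in the H2AZcKO library and 54 reads in the H2AZfl/fl library. That is a log2 ratio of -5.24 (-11.1 to -3.27), or 37.8-fold lower (9.66 to 2259) in the H2AZcKO library. The width of the interval comes from the single read in the H2AZcKO library, and with a prior of 5 reads the log2 ratio was -3.35. Per length, its level was 0.0488 RPKM (reads per kilobase of exon and 1000000 TMM-scaled reads; 95% Poisson interval 0.00124 to 0.272) in the H2AZcKO library and 2.74 RPKM (2.06 to 3.58) in the H2AZfl/fl library. These intervals do not overlap. Of the 14366 measured genes, 12 (0.0835%), Folr1 included, had a ratio as low as that of Folr1 or lower. The authors' deposited table marks Folr1, alone among the 8 genes, as significant, with an adjusted p of 1.48e-12. The labels do not name the test behind it. With 1 count column a genotype, which may be a pool, that value compares these columns and not the genotypes.

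The transporter genes Slc19a1 and Slc46a1 were close to level between the libraries. Slc19a1, on chromosome 10 from 77032241 to 77061002, encodes the reduced folate carrier, which most cells use to take up folate. It had 185 reads in the H2AZcKO library and 196 in the H2AZfl/fl library, a log2 ratio of -0.14 (-0.44 to 0.16), the furthest from 0 of the 7 genes other than Folr1. Slc46a1, on chromosome 11 from 78465697 to 78472059, encodes the proton-coupled folate transporter, which works at acidic pH and is also known from choroid plexus. Its reads numbered 161 in the H2AZcKO library and 156 in the H2AZfl/fl library, a log2 ratio of -0.01 (-0.34 to 0.32). Both intervals include a ratio of 1, and that of Slc19a1 reaches a value 1.35-fold lower, the widest departure that the intervals of the 7 genes allow.

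The enzyme genes that keep folate in the cell and convert its forms were also close to level. Fpgs, on chromosome 2 from 32682609 to 32704145, encodes folylpolyglutamate synthase, which adds glutamates to folate and so retains it. It had 146 reads in the H2AZcKO library and 135 in the H2AZfl/fl library, a log2 ratio of 0.06 (-0.29 to 0.40). Mthfd1, on chromosome 12 from 76255232 to 76319820, encodes a cytosolic enzyme with several activities that interconverts the forms of folate carrying single carbons. It was the most abundant of the 8 genes, with 513 reads in the H2AZcKO library and 503 in the H2AZfl/fl library, and its log2 ratio of -0.03 (-0.21 to 0.15) had the narrowest interval. Shmt1, on chromosome 11 from 60788104 to 60811718, encodes cytosolic serine hydroxymethyltransferase, which takes a carbon from serine. Its 174 reads in the H2AZcKO library and 168 in the H2AZfl/fl library gave a log2 ratio of -0.01 (-0.32 to 0.31). Fpgs shares 61 exonic bases with Eng on the opposite strand and 137 with the microRNA gene Mir8093, and Shmt1 shares 184 exonic bases with Smcr8 on the opposite strand. These make up 1.60%, 3.60% and 4.74% of their exonic bases, and the labels do not state whether counting used the strand.

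The genes whose products spend the carried carbon were close to level too. Tyms, on chromosome 5 from 30058202 to 30073617, encodes thymidylate synthase, which makes the thymidine nucleotide for DNA. It had 334 reads in the H2AZcKO library and 340 in the H2AZfl/fl library, a log2 ratio of -0.08 (-0.30 to 0.14). Mtr, on chromosome 13 from 12186542 to 12258113, encodes methionine synthase, which passes the methyl group of folate to homocysteine with cobalamin as cofactor. It had 197 reads in the H2AZcKO library and 192 in the H2AZfl/fl library, a log2 ratio of -0.02 (-0.31 to 0.27).

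Among the 8 genes 1 was at least 1.5-fold lower in the H2AZcKO library and 0 were higher, where 8.95% of measured genes were apart either way, 5.43% lower and 3.52% higher. The median log2 ratio was -0.02 over the 8 genes and 0.00 over all measured genes. For the 7 genes other than Folr1 all intervals included a ratio of 1, where 21.8% of measured genes had an interval that excluded it. Summed over these 7 genes, 1710 reads in the H2AZcKO library stood against 1690 in the H2AZfl/fl library, a log2 ratio of -0.04 (-0.14 to 0.06). The signs of Mtr, Shmt1 and Slc46a1 changed with the scaling, since with DESeq2 size factors their log2 ratios were 0.0039, 0.0174 and 0.0122. In the authors' deposited table, the adjusted p of these 7 genes lay between 0.587 and 0.934.

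Per length, the order of levels was the same in both libraries apart from Folr1. Mthfd1 was highest, at 12.9 RPKM in the H2AZcKO library and 13.2 RPKM in the H2AZfl/fl library, with intervals clear of the next gene, Tyms, at 6.15 RPKM in the H2AZcKO library and 6.51 RPKM in the H2AZfl/fl library. Slc46a1 had 5.86 RPKM in the H2AZcKO library and 5.90 RPKM in the H2AZfl/fl library. Shmt1 was at 5.02 RPKM in the H2AZcKO library and 5.04 RPKM in the H2AZfl/fl library. From Tyms down to Fpgs the Poisson intervals of each gene and the next overlapped in both libraries, so the order among them is not resolved. Slc19a1 was at 4.47 RPKM in the H2AZcKO library and 4.92 RPKM in the H2AZfl/fl library. Fpgs had 4.30 RPKM in the H2AZcKO library and 4.14 RPKM in the H2AZfl/fl library. Mtr was at 2.59 RPKM in the H2AZcKO library, where it lay above Folr1, and at 2.63 RPKM in the H2AZfl/fl library, where its interval overlapped that of Folr1.

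**Figure D1:**
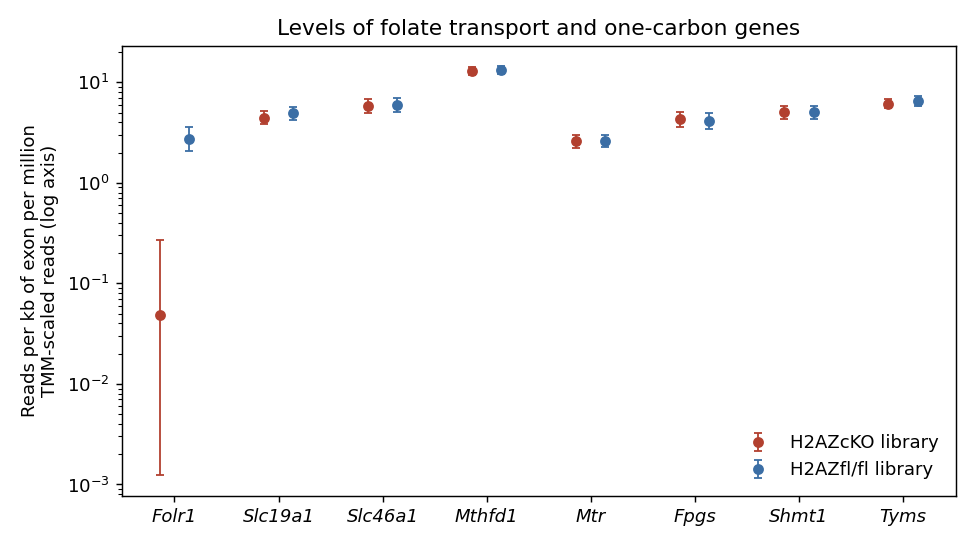
Level per exon length of each of the 8 genes (RPKM after TMM scaling, log axis) in the H2AZcKO library (red, left) and the H2AZfl/fl library (blue, right), with 95% Poisson intervals as bars. Folr1 lies at 0.0488 in the H2AZcKO library and 2.74 in the H2AZfl/fl library, and the intervals of both libraries overlap for each of the other 7 genes.

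Promoters of the genes that were level are shown for Mthfd1 and Mtr, whose windows carry the most matches to the 3 short motifs searched, together with that of Fpgs. Windows run from 250 bases before to 50 bases after the start given by RefSeq, in GRCm38.p6. Capitals mark CCAAT and GCGGGAA, read on either strand (ATTGG and TTCCCGC on the other strand). The Mthfd1 window lies on the plus strand at chr12:76254982-76255281 and that of Mtr on the minus strand at chr13:12258064-12258363.
Mthfd1: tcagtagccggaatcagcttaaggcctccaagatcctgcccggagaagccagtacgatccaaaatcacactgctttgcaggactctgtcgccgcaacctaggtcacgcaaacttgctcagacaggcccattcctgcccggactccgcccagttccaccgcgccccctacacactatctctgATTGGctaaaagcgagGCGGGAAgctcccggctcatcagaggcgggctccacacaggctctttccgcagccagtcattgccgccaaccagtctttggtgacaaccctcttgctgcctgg
Mtr: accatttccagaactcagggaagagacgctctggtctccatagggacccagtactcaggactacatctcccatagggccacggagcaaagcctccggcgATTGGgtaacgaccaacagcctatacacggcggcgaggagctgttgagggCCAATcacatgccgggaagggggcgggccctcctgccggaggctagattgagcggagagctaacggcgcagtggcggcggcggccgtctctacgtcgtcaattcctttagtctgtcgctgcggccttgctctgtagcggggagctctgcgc
RefSeq windows were matched for 7 of the 8 genes, 8 windows in all since Slc19a1 has 2, and Folr1 was not matched. CCAAT, the binding sequence of the factor NF-Y, occurred in 4 of the 8 windows and in 37.5% of windows of measured genes. GCGGGAA, a sequence bound by E2F factors, occurred in 1, that of Mthfd1, and in 8.06% of windows of measured genes. TAATCC, the core bound by the choroid plexus factor OTX2, occurred in 0 of the 8 and in 5.39%. The 8 windows held 9 to 24 CpG dinucleotides, the lowest in Tyms and the highest in Mtr, where the median over 13777 windows of measured genes was 20.

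Most markers of the choroid plexus epithelium, the tissue that secretes cerebrospinal fluid and carries folate receptor alpha, were lower in the H2AZcKO library, as Folr1 was. The list of these markers, like the other marker lists, was chosen with earlier results of these data known. Of 23 measured markers, Folr1 not among them, 18 were at least 1.5-fold lower in the H2AZcKO library and 2 higher, and their median log2 ratio was -2.78, against 0.00 over all measured genes. This median was -1.98 with a minimum of 1 read, -1.99 with a minimum of 100 reads and -2.33 with a prior of 5 reads. The summed level of all 28 markers was 214 CPM in the H2AZcKO library and 1065 CPM in the H2AZfl/fl library. Single genes made up most of each sum. Tmem72 had 135 CPM in the H2AZcKO library and 144 CPM in the H2AZfl/fl library, and Ttr had 1.35 CPM and 702 CPM. Ttr, which encodes the thyroid hormone carrier transthyretin, had 12 reads in the H2AZcKO library and 6025 in the H2AZfl/fl library. Calml4, Cldn2 and Kcnj13 were at 0 reads in the H2AZcKO library and had 26, 21 and 11 reads in the H2AZfl/fl library. Tmem72, a transmembrane protein gene, and Slc4a10, a bicarbonate transporter gene also expressed in neurons, had log2 ratios of -0.10 (-0.22 to 0.02) and -0.17 (-0.42 to 0.09). Prlr and Lmx1b, the 2 higher markers, had 14 and 17 reads in the H2AZcKO library and 7 and 4 in the H2AZfl/fl library. Their log2 ratios were 0.89 (-0.46 to 2.49) and 1.90 (0.41 to 4.06), and the interval of Prlr includes a ratio of 1. The part of choroid plexus tissue in the Folr1 value was not tested, and in bulk tissue fewer cells of a type and less RNA per cell cannot be told apart.

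The interval of Folr1 overlapped that of 13 of the 23 measured choroid plexus markers and lay below those of the other 10. The Folr1 interval spans -11.1 to -3.27 because of its 1 read in the H2AZcKO library. Overlap with any strongly lower gene was therefore near certain, and it does not show likeness. By nearness of the log2 ratio over the 2 libraries, the 5 measured genes most like Folr1 were Clic6, Gjb2, Cldn11, Slc4a5 and Krt18. With 0 to 6 reads in the H2AZcKO library, these ratios depend on the prior of 0.5 read, and so does this choice of genes. Clic6, of the chloride intracellular channel family, and Slc4a5, a bicarbonate transporter gene, are on the choroid plexus list and had 6 and 1 reads in the H2AZcKO library, with 227 and 62 reads in the H2AZfl/fl library. Cldn11, a tight junction gene on the meningeal list, had 2 reads in the H2AZcKO library and 79 in the H2AZfl/fl library. Gjb2, a gap junction gene, and Krt18, a keratin gene, had 0 reads in the H2AZcKO library and 20 and 21 in the H2AZfl/fl library. Of the reads assigned to Folr1 or Ttr, Folr1 took 1 of 13 in the H2AZcKO library, 7.69% (exact binomial interval 0.195 to 36.0%). In the H2AZfl/fl library Folr1 took 54 of 6079, 0.888% (0.668 to 1.16%). These intervals overlap, but with 13 reads the H2AZcKO interval is too wide to tell a kept from a changed share.

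**Figure D2:**
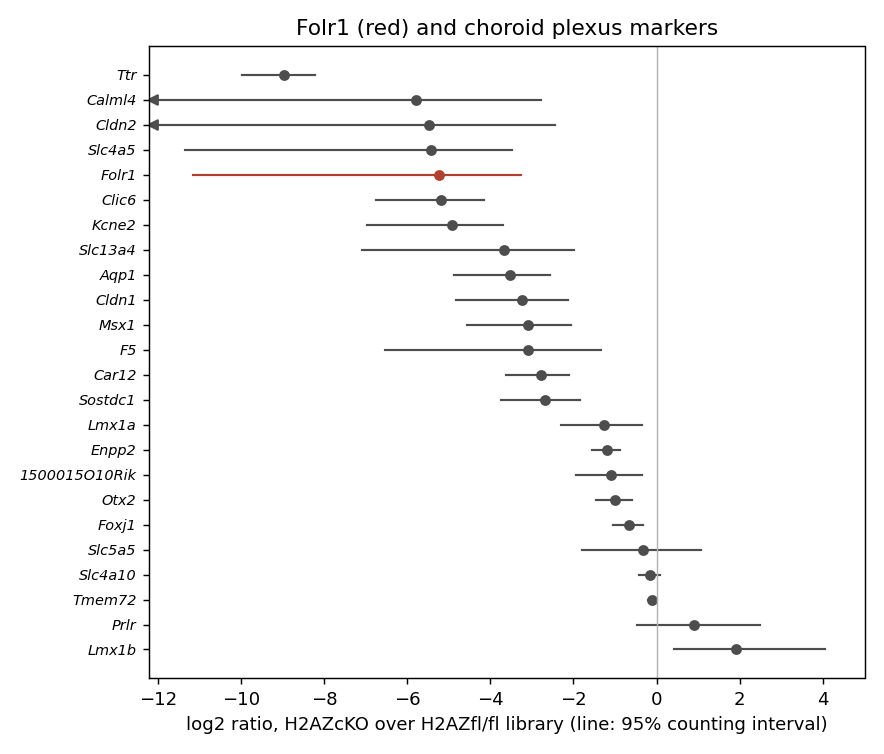
Log2 ratio of the H2AZcKO library over the H2AZfl/fl library for Folr1 (red) and the 23 measured choroid plexus markers (grey), lowest at the top, with exact 95% counting intervals as lines and an arrowhead where a gene had 0 reads in the H2AZcKO library. Folr1 at -5.24 lies between Slc4a5 and Clic6, while Slc4a10 and Tmem72 lie near 0.

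Markers of meningeal fibroblasts were lower in the H2AZcKO library too, and markers of vessels and blood lay closer to level. Of 18 measured meningeal markers, 16 were at least 1.5-fold lower in the H2AZcKO library and 1 higher, with a median log2 ratio of -3.69 (-3.62 with genes at 0 reads set to a floor of 3 reads, and -2.82 with a prior of 5 reads). The 19 listed summed to 34.1 CPM in the H2AZcKO library and 317 CPM in the H2AZfl/fl library. The collagen genes Col1a1, Col3a1 and Col1a2 had 17, 50 and 42 reads in the H2AZcKO library and 455, 657 and 540 in the H2AZfl/fl library. Slc22a6, an organic anion transporter gene, had 0 reads in the H2AZcKO library and 29 in the H2AZfl/fl library. Of 14 endothelial markers 2 were lower and 0 higher, with a median of -0.26, and the 15 listed summed to 328 CPM in the H2AZcKO library and 367 CPM in the H2AZfl/fl library. Slc2a1, the glucose transporter gene of brain vessels, and Kdr, a receptor for vascular growth factor, were at -0.16 (-0.32 to 0.01) and -0.06 (-0.26 to 0.13). Cdh5, an endothelial cadherin gene, was at -0.31 (-0.56 to -0.07), and the 2 lower markers were Emcn, at -0.76 (-1.36 to -0.18), and Slco1a4, with 0 reads in the H2AZcKO library and 33 in the H2AZfl/fl library. Of 7 erythroid markers 1, Slc4a1 with 12 reads in the H2AZcKO library and 18 in the H2AZfl/fl library, was lower, and the median was -0.28. The 8 listed summed to 257 CPM in the H2AZcKO library and 313 CPM in the H2AZfl/fl library. The globin genes Hbb-bs, Hba-a1 and Hbb-bt were at -0.30 (-0.42 to -0.18), -0.26 (-0.47 to -0.05) and -0.28 (-0.49 to -0.07).

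The other receptor gene, Folr2, encodes folate receptor beta, which macrophages at the brain's borders carry. It had 1 read in the H2AZcKO library and 11 in the H2AZfl/fl library, a log2 ratio of -2.995 (-8.94 to -0.73), and with 12 reads in all it was below the minimum for a measured gene. All 4 measured markers of border macrophages were at least 1.5-fold lower in the H2AZcKO library, and the summed level of the 7 listed was 16.8 CPM in the H2AZcKO library and 57.1 CPM in the H2AZfl/fl library. Stab1, Mrc1, F13a1 and Lyve1 had 113, 21, 7 and 5 reads in the H2AZcKO library, against 246, 109, 75 and 31 in the H2AZfl/fl library. Of 10 measured microglial markers 3 were lower and 1 higher, with a median of -0.26, and the 11 listed summed to 54.1 CPM in the H2AZcKO library and 62.8 CPM in the H2AZfl/fl library. Csf1r, the growth factor receptor gene of microglia, was at 0.08 (-0.27 to 0.44), and the complement gene C1qc was at -0.49 (-0.996 to 0.01). C1qb, Tmem119 and Siglech, the 3 lower ones, were at -0.73 (-1.31 to -0.18), -1.16 (-2.44 to -0.06) and -0.94 (-2.32 to 0.27). The part of these cells in the Folr2 value was not tested.

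Most measured genes around Folr1 were close to level, as were most of all measured genes. Folr1 lies on the minus strand of chromosome 7 from 101858331 to 101870788, and 11 other listed genes start within 200 kb of its start. Of the 8 that were measured, 1 was at least 1.5-fold lower in the H2AZcKO library and 0 were higher. The lower one was Lrrc51, with 26 reads against 40 in the H2AZfl/fl library. Its log2 ratio was -0.67 (-1.45 to 0.07), an interval that includes a ratio of 1. Over all measured genes 5.43% were lower and 3.52% higher, so a count among 8 genes does not set the neighbours apart. The log2 ratios of the 8 ran from -0.67 to 0.14 with a median of -0.03. Folr2, the nearest by its start in the deposited positions, was among 3 below the read minimum. Its interval, given above, overlaps that of Folr1, but each rests on 1 read in the H2AZcKO library. Anapc15, which encodes a subunit of the anaphase-promoting complex, starts at 101881325 in the deposited positions, past the end of Folr1. In the GENCODE M21 gene model Anapc15 overlaps Folr1 on the opposite strand but shares 0 exonic bases with it. It had 113 reads in the H2AZcKO library and 111 in the H2AZfl/fl library.

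The wider folate and one-carbon pathway was mostly close to level, as were most of all measured genes. Of 81 other listed genes of receptors, carriers, enzymes and cofactor supply, 75 were measured. Of these, 3 were at least 1.5-fold lower in the H2AZcKO library and 1 was higher, and the median log2 ratio was 0.00. Over all measured genes 5.43% were lower and 3.52% higher, so these counts do not set the pathway apart. Intervals excluded a ratio of 1 for 6 of the 75 on the lower side and 5 on the higher side, where 21.8% of all measured genes had such an interval. The genes at least 1.5-fold lower were Sardh, Cth and Tcn2, and the gene at least 1.5-fold higher was Amn. Sardh, a mitochondrial enzyme of sarcosine breakdown that hands its carbon to folate, had 19 reads in the H2AZcKO library and 41 in the H2AZfl/fl library, a log2 ratio of -1.15 (-2.03 to -0.35). It was the 1 of 12 measured mitochondrial and glycine cleavage genes that was apart. Tcn2, which encodes the plasma carrier of cobalamin, the cofactor of methionine synthase, had 59 reads in the H2AZcKO library and 94 in the H2AZfl/fl library, a log2 ratio of -0.72 (-1.22 to -0.24). Amn, a partner of cubilin in the uptake of cobalamin, had 17 reads in the H2AZcKO library and 10 in the H2AZfl/fl library, a log2 ratio of 0.68 (-0.50 to 2.00). Both are among the 10 genes of cobalamin uptake and use, all measured. Cth, which breaks down cystathionine made from homocysteine, had 18 reads in the H2AZcKO library and 27 in the H2AZfl/fl library. Its log2 ratio was -0.63 (-1.59 to 0.27), and it was the 1 of 13 measured genes of the methionine cycle that was apart. The intervals of Cth and Amn include a ratio of 1.

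In the remaining groups 0 measured genes were at least 1.5-fold apart. Lrp2 and Cubn, which encode the large uptake receptors megalin and cubilin, had log2 ratios of 0.33 (-0.14 to 0.81) and 0.41 (-0.85 to 1.76), the furthest from level of 7 measured receptors, carriers and exporters. Slc19a2, a thiamine transporter gene of the Slc19 family, and Slc46a3, of the Slc46 family, were at 0.17 (-0.27 to 0.61) and 0.07 (-0.84 to 1.0). Qdpr, a dihydropteridine reductase gene, was at -0.28 (-0.58 to 0.02), the furthest from level of 3 genes of folate storage and reduction. Mthfsl was at -0.48 (-1.61 to 0.58), the furthest of 3 measured cytosolic enzyme genes. Of 19 genes of nucleotide synthesis, Dhodh, an enzyme of pyrimidine synthesis, and Dut, which clears dUTP and supplies the substrate of thymidylate synthase, were furthest from level, at -0.36 (-0.71 to -0.01) and 0.27 (0.10 to 0.46). Of 6 genes of serine synthesis and uptake, Psat1, an enzyme of serine synthesis, and Slc1a4, a neutral amino acid transporter gene, were furthest, at 0.21 (0.10 to 0.31) and 0.23 (0.09 to 0.36).

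**Figure D3:**
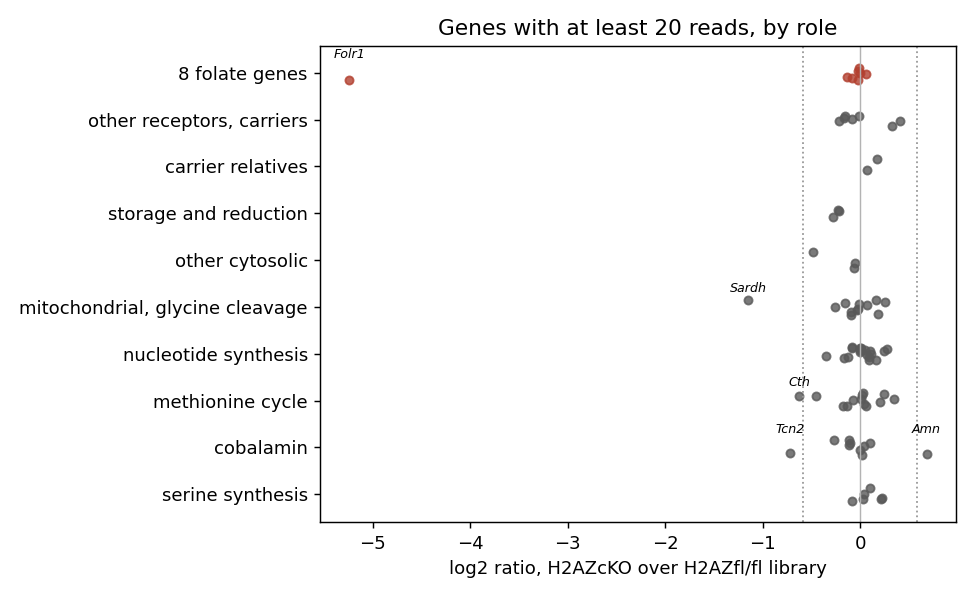
Log2 ratio of the H2AZcKO library over the H2AZfl/fl library for each gene with at least 20 reads over both libraries, by role, with the 8 folate genes in red and dotted lines at 1.5-fold either way. Folr1 at -5.24 stands far from all others, and Sardh, Cth, Tcn2 and Amn are the other genes beyond the dotted lines.

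Tyms and the nucleotide genes serve dividing cells, and markers of dividing cells were level as well. Of 21 measured S phase markers 0 were at least 1.5-fold lower in the H2AZcKO library and 1 was higher. Over all measured genes 5.43% were lower and 3.52% higher, so these counts do not set the markers apart. The higher one was the flap endonuclease gene Fen1, with 31 reads against 15 in the H2AZfl/fl library. The median log2 ratio of the 21 markers was 0.01. Their summed level was 1233 CPM in the H2AZcKO library and 1212 CPM in the H2AZfl/fl library. Mcm7, Mcm6 and Mcm2, subunits of the replicative helicase, were at 0.09 (-0.00 to 0.19), 0.01 (-0.11 to 0.13) and 0.01 (-0.12 to 0.14), and Gins2 was at -0.31 (-0.75 to 0.12). Of 19 mitotic markers 0 were apart, with a median of 0.03 and a summed level of 2126 CPM in the H2AZcKO library and 2053 CPM in the H2AZfl/fl library. Mki67, Top2a and Tpx2 were at 0.06 (-0.00 to 0.13), 0.14 (0.07 to 0.21) and -0.06 (-0.18 to 0.06), and Kif20a and Ccnb1 at 0.30 (0.10 to 0.50) and 0.27 (0.09 to 0.46).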

How the data were processed

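RNA was sequenced from 2 samples, 1 per genotype, from TruSeq libraries per the labels' protocols. The tools listed in the submitters' processing notes are HTSeq 0.6.0, TopHat2 2.0.12 and Bowtie2 2.2.3, without roles, with mm9 as the build. The deposited positions were identical to GENCODE M21 (GRCm38) for 15573 of 19720 genes (79.0%), including 6 of the 8 folate genes, so they are given as GRCm38. Read counts per gene are the deposited raw values per the file headers. The authors also deposited CPM values, and fold and log2 columns of control over knockout with p-values and adjusted p-values from a test that the labels do not name.

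Counts were scaled by TMM in edgeR 4.0.16 (R 4.3.3). Log2 ratios use a prior of 0.5 read, a minimum of 20 reads over both libraries and a limit of 1.5-fold. RPKM was computed over the exons of all GENCODE M21 transcripts of a gene. Intervals are exact (95%). PCR duplicates cannot be told apart, so intervals cover counting error only. With 1 sample a genotype there is no replicate error and no test. The calculation was tested on simulated data. Alternatives were library totals, DESeq2 1.42.0 size factors, upper quartile, TMM without the marker lists, priors of 5 and 0.125 reads, minimums of 1 and 100 reads and a stricter (2-fold) and a looser fold limit. Figures used matplotlib 3.10.9 in Python 3.11.15, with numpy 2.4.6, pandas 2.3.3 and scipy 1.17.1.

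The 8 genes, the 9 pathway lists and the 10 marker lists were chosen with earlier results of these data known. Named genes are the 8 genes, H2afz, pathway genes at least 1.5-fold apart or else the 2 furthest from level in each list, the 3 marker genes with the most reads and the 2 furthest from level in each list, and the 5 genes nearest to Folr1 in log2 ratio. Some of these values are not reported here. Beyond the rule, and after their values were seen, the text names Folr2, Cldn2, Kcnj13, Prlr, Lmx1b, the gene neighbours Lrrc51 and Anapc15, and the genes that overlap or share sequence with the 8.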

Additional observations from a re-analysis of the deposited data

How the results depend on the processing

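No paired analysis was possible because each genotype has 1 count column, and none could be left out. Across the scaling and prior alternatives, the log2 ratio of Folr1 lay between -5.64 and -3.35, that of H2afz between -1.20 and -1.14, and each of the other 7 folate genes stayed inside its counting interval. Among the scalings, library totals moved the median log2 ratio of all measured genes the most, by -0.035. Counts of genes apart moved by over 1.5 times mainly with the read minimum. With a minimum of 100 reads, 0 of the 8 folate genes were lower, since Folr1 has 55 reads in all, 1 pathway gene was lower and 0 were higher, 8 choroid plexus markers were lower and 0 higher, 9 meningeal markers were lower and 0 higher, and over all marker lists 21 were lower and 2 higher. With a minimum of 1 read, 2 pathway genes were higher. With a 2-fold limit 1 pathway gene was lower and 0 higher, 1 choroid plexus marker was higher and 0 meningeal markers were. With the looser fold limit 6 pathway genes were lower and 4 higher. With a prior of 5 reads 0 pathway genes and 0 meningeal markers were higher. In these settings fewer or more genes are counted by construction. At this depth the single Folr1 read of the H2AZcKO library limits the size of its ratio, and differences smaller than the intervals of the 7 other genes were not detectable.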
